A study of Rattus norvegicus with 6 samples.

Results

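The ErbB receptors and their ligands were examined in pituitary glands of rats whose mothers received nicotine during pregnancy. The 10 genes comprise 4 receptors (Egfr, Erbb2, Erbb3 and Erbb4) and 6 ligands (Nrg1, Nrg2, Nrg3, Nrg4, Btc and Hbegf), out of 33294 gene symbols in the count tables. They were matched by gene symbol. The family was chosen by way of Erbb4, which the study names for its higher expression in these same libraries. The values of Erbb4 are therefore a description. Neither its calls below nor their stability without single libraries is read as a test. The other 9 genes were taken as its relatives and partners, not for their own values.

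RNA was sequenced from 3 Sprague-Dawley males born to dams that received nicotine tartrate at 6 mg/kg per day from a subcutaneous osmotic pump placed during pregnancy, and from 3 males born to dams whose pump held sterile saline alone. The pump was rated to run past birth and its removal is not described, so exposure may have gone on into nursing. All rats were 11 weeks old, and each library came from 1 rat. The sources do not say whether the rats of a group came from separate litters, so the spread between libraries may be smaller than that between litters. Totals ranged from 28318383 to 85977002 counts, and the median total of the nicotine group was 1.70 times that of the control group. The libraries carried the transcripts of a pituitary gland, with growth hormone (Gh1) alone at 5.34% to 12.4% of the counts and Prl at 1.88% to 3.64%, although the RNA extraction described for them names testis. All 15 hormone cell markers of the anterior lobe were counted, and they summed to 114316 to 176903 CPM after nicotine and 146562 to 160141 CPM in controls (CPM is a gene's count relative to the TMM-scaled total of its library). Nicotine replicate 2 was the deepest library and stood apart most, with an average distance to the others of 90.85 over the log2 levels of all genes tested, against 72.0 to 80.7 for the remaining 5.

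ErbB receptors are tyrosine kinases of the cell surface that pair with each other when a ligand with an EGF-like domain binds. EGFR binds ligands such as betacellulin (Btc) and heparin-binding EGF-like growth factor (Hbegf), ERBB3 and ERBB4 bind neuregulins, and ERBB4 also binds betacellulin and heparin-binding EGF-like growth factor. ERBB2 has no known ligand and acts as the partner of the others, while ERBB3 has a very weak kinase and passes the signal on through its partner. In the pituitary gland the family is known for paracrine control of prolactin and growth hormone cells, and in the brain for neuregulin signaling through ERBB4 in inhibitory neurons.

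The sequences before the start sites of Erbb4 and Nrg3 are shown because these genes had the largest positive and negative difference in the family. Each line gives the 250 bases before the annotated start in RefSeq build GRCr8, 5′ to 3′ on the strand of the gene, with every CG dinucleotide in capitals. The Erbb4 window is chr9:78045607-78045856 and the Nrg3 window is chr16:15374108-15374357, both on the minus strand.
Erbb4: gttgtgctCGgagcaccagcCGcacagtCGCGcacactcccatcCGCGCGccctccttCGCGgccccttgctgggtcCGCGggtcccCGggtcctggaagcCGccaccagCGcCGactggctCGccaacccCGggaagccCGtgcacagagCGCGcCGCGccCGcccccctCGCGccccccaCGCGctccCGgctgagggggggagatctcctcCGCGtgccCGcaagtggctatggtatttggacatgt
Nrg3: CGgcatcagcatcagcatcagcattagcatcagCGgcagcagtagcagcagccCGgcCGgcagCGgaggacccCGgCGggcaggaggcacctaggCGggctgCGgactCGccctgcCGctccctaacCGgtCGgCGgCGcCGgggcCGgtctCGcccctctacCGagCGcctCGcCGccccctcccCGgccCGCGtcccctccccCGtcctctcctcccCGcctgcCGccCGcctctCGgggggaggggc
Erbb4 held 31 CG dinucleotides in this window, and 4.68% of the 33469 windows of this length in the table held at least as many. Nrg3 held 30, a number reached by 5.35% of all windows. Of the 10 genes 8 were in the table, with 10 to 31 CG dinucleotides each against a median of 5 over all windows. These counts describe the windows alone, and DNA methylation was not analysed here.

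All 10 genes were expressed highly enough to be tested. Levels in CPM are compared between libraries only, since no transcript lengths of the files' build were used. A call needed a fold change above 1.5 and an adjusted p below 0.1 by edgeR's quasi-likelihood method. By this rule 0 of the 10 genes were called, as were 0% of the 17292 genes tested. At an unadjusted p under 0.05 the count was 1 of 10, against a background of 6.14%, and the gene was Erbb4, on whose difference the family was selected. DESeq2, the tool of the study, also called 1 of 10, again Erbb4, against a background of 0.339%. That call was lost in 3 of the 6 DESeq2 fits that left out 1 library, those without nicotine replicate 3 or without control replicates 2 or 3. Because that contrast chose the family, nothing is read from these shares.

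**Figure D1:**
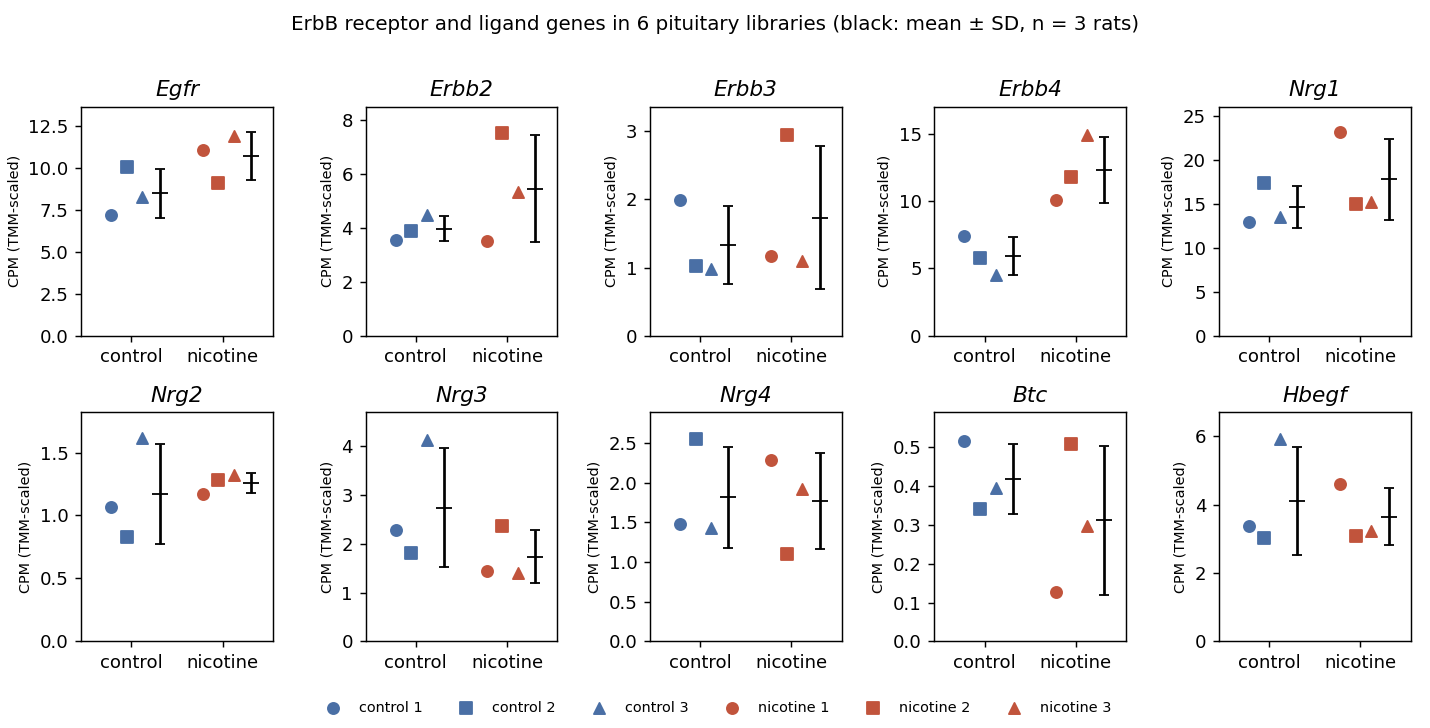
Level of each gene (y axis, CPM after TMM scaling, each panel with its own scale from 0) in the 3 control and 3 nicotine libraries. Symbols mark single libraries and black bars the mean ± SD (n = 3). The groups separate for Erbb4, at 4.54 to 7.42 CPM in controls and 10.1 to 15.0 CPM after nicotine, and overlap in the other 9 panels.

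Erbb4 encodes the receptor for all 4 neuregulins examined. It stood at 10.1, 11.8 and 15.0 CPM in nicotine replicates 1, 2 and 3, and at 7.42, 5.81 and 4.54 CPM in control replicates 1, 2 and 3. The nicotine libraries were thus all above the controls. Nicotine libraries averaged 12.3 ± 2.45 CPM and controls 5.92 ± 1.44 CPM (SD, n = 3 each), a ratio of 2.07. The log2 fold change was 1.06 with a standard error (SE) of 0.24, and it lay between 0.90 and 1.24 when 1 library at a time was left out. These values rest on 172 to 1086 counts per library. Within the family 1 of 10 genes, Erbb4 itself, had all nicotine libraries above all controls, as did 6.12% of all genes tested, and 0 of 10 had them all below, against 5.14% of all genes.

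For the other 9 genes the groups overlapped, 0 of 9 had an unadjusted p under 0.05 and the adjusted p ran from 0.821 to 0.966 in edgeR. The count of 0 at the unadjusted threshold rests on single libraries, since it became 1 of 9 without nicotine replicate 1 (Erbb2), without nicotine replicate 2 (Nrg3) and without control replicate 2 (Nrg3), with 0 of 9 called in each case.

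The other 3 receptors had positive log2 fold changes with overlapping groups. Egfr, the receptor for EGF, stood at 11.1, 9.11 and 11.9 CPM after nicotine and at 7.16, 10.04 and 8.27 CPM in controls. The highest 2 values were nicotine libraries, but control replicate 2 was above nicotine replicate 2. The log2 fold change of Egfr was 0.33 (SE 0.21, edgeR adjusted p = 0.831), with a 95% confidence interval from -0.14 to 0.79.

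Erbb2, which encodes the receptor without a ligand, was at 3.52, 7.50 and 5.30 CPM after nicotine and at 3.54, 3.86 and 4.46 CPM in controls. Nicotine replicate 2 was the highest and nicotine replicate 1 the lowest of the 6 libraries. Erbb2 had a log2 fold change of 0.47 (SE 0.29, edgeR adjusted p = 0.827). Leaving out nicotine replicate 2 gave 0.15, and leaving out nicotine replicate 1 gave 0.70. Erbb3 was at 1.17, 2.94 and 1.09 CPM after nicotine and at 1.99, 1.02 and 0.977 CPM in controls. Its high libraries were nicotine replicate 2 and control replicate 1, and the remaining 4 lay close together. The log2 fold change of Erbb3 was 0.49 (SE 0.46, edgeR adjusted p = 0.854), and it turned to -0.18 without nicotine replicate 2. For Erbb2 and Erbb3 the difference between groups was therefore within the spread of the nicotine group.

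**Figure D2:**
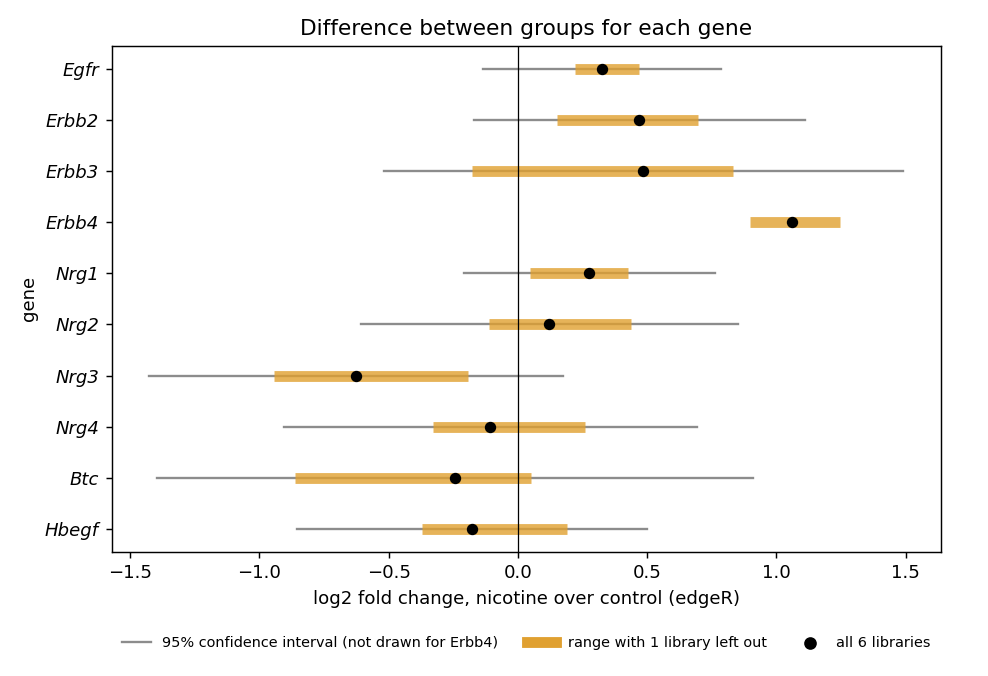
Log2 fold change of nicotine over control (x axis) for each gene (y axis) from edgeR. Points are the fit to all 6 libraries and thick bars the range when 1 library is left out. Thin lines are the 95% confidence interval, drawn for 9 genes and not for Erbb4, by which the family was chosen. The bar of Erbb4 runs from 0.90 to 1.24, while the interval of each other gene includes 0.

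Among the ligands, the log2 fold changes of the neuregulins differed in sign, and each interval included 0. Nrg1, the neuregulin of nerve and Schwann cell development, was at 23.2, 15.0 and 15.3 CPM after nicotine and at 13.0, 17.4 and 13.5 CPM in controls. Nicotine replicate 1 stood above the rest, and the other nicotine libraries lay within the range of the controls. Nrg1 had a log2 fold change of 0.28 (SE 0.22, edgeR adjusted p = 0.841), which came to 0.05 without nicotine replicate 1. Nrg2 was at 1.17 to 1.32 CPM after nicotine and at 0.832 to 1.61 CPM in controls, with a log2 fold change of 0.12 (SE 0.33). All nicotine libraries of Nrg2 thus lay inside the range of the controls.

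Nrg3, a neuregulin of the nervous system that binds ERBB4, was at 1.44, 2.37 and 1.40 CPM after nicotine and at 2.29, 1.82 and 4.12 CPM in controls. Control replicate 3 was the highest library, and nicotine replicate 2 was above 2 of the 3 controls. Nicotine libraries averaged 1.74 ± 0.545 CPM and controls 2.74 ± 1.22 CPM (SD, n = 3 each). Its log2 fold change of -0.62 (SE 0.36, edgeR adjusted p = 0.821) was the most negative of the family, with a 95% confidence interval from -1.43 to 0.18. It was -0.19 without control replicate 3, -0.94 without nicotine replicate 2 and -0.88 without control replicate 2. Nrg3 and Erbb4 were thus placed in opposite order in control replicate 3, which held the lowest Erbb4 and the highest Nrg3 level of the 6 libraries.

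Nrg4, a neuregulin that binds ERBB4 and is known from adipose tissue, was at 2.29, 1.11 and 1.92 CPM after nicotine and at 1.48, 2.55 and 1.43 CPM in controls. Both groups held a high and a low library, and the log2 fold change was -0.11 (SE 0.36, edgeR adjusted p = 0.966). Hbegf was at 4.60, 3.09 and 3.24 CPM after nicotine and at 3.36, 3.03 and 5.92 CPM in controls. Here too control replicate 3 was the highest library. Hbegf had a log2 fold change of -0.18 (SE 0.31), which changed to 0.19 without control replicate 3. Btc was the least counted gene of the family, with 6 to 47 counts per library, and ranged from 0.127 to 0.510 CPM after nicotine and from 0.340 to 0.517 CPM in controls. Its log2 fold change of -0.24 had a 95% confidence interval from -1.40 to 0.91. Its counts were low and its nicotine libraries spread widely, and the part of each in this interval was not tested.

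The other genes of the pathway were taken from 6 lists with 100 genes, of which 96 were tested. In edgeR and in DESeq2 0 of them were called. At an unadjusted p under 0.05 there were 4 higher and 0 lower genes, or 4.17%, against the background of 6.14%. All nicotine libraries lay above all controls for 10 of the 96 genes, or 10.4% against the background of 6.12%, and below for 0 against 5.14%. Without nicotine replicate 2 there were 1 higher gene, Pik3r1, and 2 lower. The 4 genes of the full comparison are named next, each with an adjusted p between 0.785 and 0.806 from edgeR.

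Of the remaining EGF-like ligands, Tgfa, the gene of transforming growth factor alpha, was at 1.87, 5.04 and 1.97 CPM after nicotine and at 1.37, 1.70 and 2.43 CPM in controls. The high value was again nicotine replicate 2, and the log2 fold change of Tgfa went from 0.71 to 0.04 without it. Egf was at 0.847 to 1.78 CPM after nicotine and at 0.923 to 1.42 CPM in controls. Areg had only 3 to 13 counts per library and was not tested, and Ereg and Epgn had 0 counts in all 6 libraries, which allows up to 0.0326 to 0.111 CPM by counting error alone.

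The 12 proteases that release ligands or cut receptors had a median log2 fold change of 0.05, against 0.007 over all genes tested, with 8 positive and 4 negative. The most abundant were Aph1a and Ncstn, subunits of gamma-secretase, at 97.8 and 101 CPM after nicotine and 98.3 and 93.4 CPM in controls. Rhbdf2, whose product iRhom2 guides the sheddase ADAM17 to the cell surface, was at 1.76, 2.79 and 2.56 CPM after nicotine and at 1.37, 1.15 and 1.80 CPM in controls (log2 fold change 0.75, SE 0.31). Nicotine replicate 1 of Rhbdf2 lay just below control replicate 3.

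The 16 genes for receptor brakes and turnover had a median log2 fold change of 0.11. Nedd4, a ubiquitin ligase, was the most abundant at 560 ± 93.7 CPM after nicotine and 522 ± 44.8 CPM in controls (SD, n = 3 each), followed by Rnf41, a ubiquitin ligase that acts on ERBB3, at 61.8 and 58.9 CPM. Hgs, which sorts internalised receptors for degradation, was at 38.2, 54.4 and 43.1 CPM after nicotine and at 26.4, 32.2 and 36.7 CPM in controls. The groups did not overlap for Hgs, with a log2 fold change of 0.51 (SE 0.19).

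The 34 adapters and signal transducers held 22 positive and 12 negative log2 fold changes around a median of 0.09. The most abundant, Akt1 and Map2k1, were at 187 and 152 CPM after nicotine and at 178 and 159 CPM in controls. Gab2, a docking protein for phosphoinositide 3-kinase, was at 20.7, 29.9 and 27.2 CPM after nicotine and at 20.2, 16.7 and 18.6 CPM in controls (log2 fold change 0.49, SE 0.19). Pik3r1, a regulatory subunit of that kinase, was at 35.9, 32.04 and 34.8 CPM after nicotine and at 22.9, 30.1 and 26.0 CPM in controls (log2 fold change 0.38, SE 0.16). Each nicotine library was above each control library for Gab2 and Pik3r1, by a narrow margin in both.

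The 17 tested genes of ERK feedback and early response held 7 positive and 10 negative log2 fold changes around a median of -0.12. The most abundant were Etv1, a transcription factor, at 71.2 ± 10.2 and 87.3 ± 14.1 CPM, and Fos at 58.5 ± 53.6 and 78.4 ± 44.8 CPM (SD, n = 3 each, nicotine then control), both with overlapping groups. The 15 synaptic and heparan sulfate partners had a median of 0.05, and the most abundant, Sdc2 and Cd9, had log2 fold changes of -0.03 and -0.15.

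**Figure D3:**
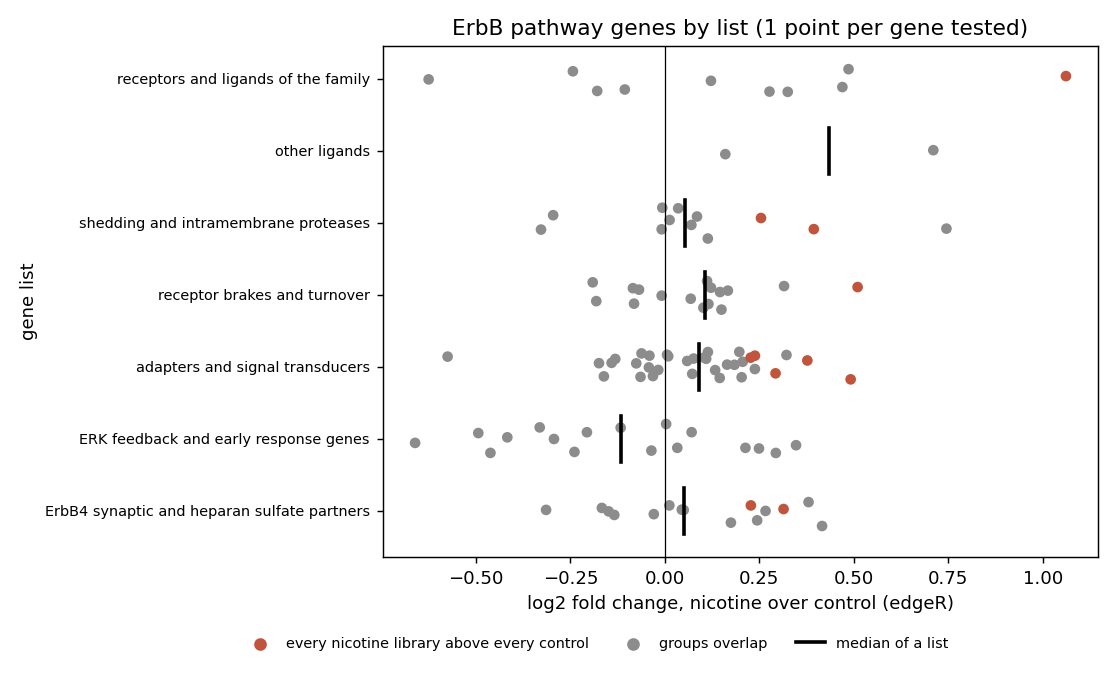
Log2 fold change of nicotine over control (x axis) for the genes tested in the family and in 6 pathway lists (y axis). Each point is a gene, red where all nicotine libraries lay above all controls, and black lines are the medians of the lists. Erbb4, at 1.06, lies to the right of all other points, and the list medians run from -0.12 to 0.44.

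The gland holds several cell types, and in bulk tissue fewer cells of a type and less RNA per cell cannot be told apart. Marker lists were therefore read in the same libraries. The 8 posterior lobe markers, which include the pituicyte factors Rax and Nkx2-1 and the axonal hormone transcripts Avp and Oxt, all had positive log2 fold changes with a median of 1.49. For 4 of them all nicotine libraries lay above all controls, as they did for 6.12% of all genes tested. An unadjusted p under 0.05 was found for 6, against 6.14% of all genes, and 0 were called in edgeR. Without nicotine replicate 2 the median was 1.08, with 7 of 8 positive and 2 at an unadjusted p under 0.05. Their summed level was 209, 439 and 258 CPM after nicotine and 247, 159 and 118 CPM in control replicates 1, 2 and 3. Slc1a3 and Scn7a, which both overlapped between groups, made up most of the sum in the controls and in nicotine replicates 1 and 3. They gave 92.2 and 73.1 CPM of it in control replicate 1. That control was also above nicotine replicate 1 for Rax, at 5.69 and 5.16 CPM, and for Lhx2, at 4.91 and 4.05 CPM. Its Avp and Oxt were at 32.3 and 31.2 CPM, below the 35.7 and 32.7 CPM of nicotine replicate 1. Control replicate 3 was lowest and control replicate 1 highest among the controls, the same order as for Erbb4, whereas the highest nicotine library was replicate 2 for the markers and replicate 3 for Erbb4. The part of the posterior lobe share in the difference of Erbb4 was not tested.

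The 9 neuron markers, of which 8 were tested, summed to 296, 317 and 197 CPM after nicotine and to 169, 181 and 178 CPM in controls. These sums did not overlap between groups, while those of the posterior lobe list did. Of the 8 neuron markers tested 7 had positive log2 fold changes (median 0.34). In edgeR 3 had an unadjusted p under 0.05, against 6.14% of all genes. For 1, Tubb3, all nicotine libraries lay above all controls, against 6.12% of all genes. Of the enzymes that make GABA, Gad1 had 5 to 29 counts per library with a log2 fold change of -0.48 (SE 0.53), and Gad2 had at most 1 count. Most of the sum came from the neurofilament gene Nefl and from Tubb3, which nerve fibers and endocrine cells also express. Nefl overlapped between groups, at 41.7 CPM in nicotine replicate 3 and 42.7 to 48.7 CPM in controls. The 6 fibroblast markers summed to 287 to 501 CPM after nicotine and 578 to 784 CPM in controls, and the 8 blood and immune markers to 91.3 to 195 CPM and 210 to 336 CPM. The sums of both lists were lower in all nicotine libraries than in all controls. The largest parts were Dcn at 101 to 246 and 284 to 430 CPM and Alas2 at 37.7 to 121 and 129 to 197 CPM (nicotine then control). All markers of both lists had negative log2 fold changes (medians -0.76 and -1.04). In 6 of 6 and 4 of 8 the unadjusted p was under 0.05, and 3 and 2 lay below all controls. Over all genes tested 6.14% had such a p, 5.14% lay below and 6.12% above all controls. The 6 endothelial markers summed to 160 to 272 CPM after nicotine and 137 to 184 CPM in controls. All 6 had positive log2 fold changes (median 0.42), 3 had an unadjusted p under 0.05 and 2 did not overlap between groups. The 10 smooth muscle and pericyte markers summed to 69.0 to 242 CPM after nicotine and 61.8 to 76.3 CPM in controls, with the top value due mostly to Tagln at 138 CPM in nicotine replicate 3. All 10 were positive (median 0.71), 5 had an unadjusted p under 0.05, 3 did not overlap between groups, and 1, the smooth muscle actin gene Acta2, was called by DESeq2 but not by edgeR. Acta2 was at 2.74, 2.21 and 2.54 CPM after nicotine and at 0.258, 0.984 and 0.449 CPM in controls. Their part in the levels of the family was not tested.

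The high libraries of single members coincided with other markers. Nicotine replicate 2, highest for Erbb2, Erbb3 and Tgfa, was also highest for the gonadotroph transcripts Lhb, Gnrhr and Nr5a1. The same library was highest for Gh1 and for the sums of the posterior lobe and neuron markers, at 439 and 317 CPM. Lhb was at 216, 820 and 223 CPM after nicotine and at 154, 75.6 and 125 CPM in controls, and Gnrhr at 34.2, 106 and 34.6 CPM and at 30.1, 25.3 and 21.0 CPM. Lhb, Gnrhr and Nr5a1 thus separated the groups, with log2 fold changes of 1.83, 1.20 and 0.74 at unadjusted p = 0.0028, 0.010 and 0.043 in edgeR, and 0 of them were called. Of the 15 anterior lobe markers 4 had all nicotine libraries above all controls, against 6.12% of all genes tested. An unadjusted p under 0.05 was found for 3 of the 15, against 6.14% of all genes. Without nicotine replicate 2 the log2 fold changes of Lhb, Gnrhr and Nr5a1 were 0.89, 0.43 and 0.15. The unadjusted p was then 0.0031, 0.031 and 0.42 in edgeR. In the full comparison the hormone subunit genes Fshb and Cga, also highest in nicotine replicate 2, overlapped between groups. Their log2 fold changes were 0.38 and 0.49 (unadjusted p = 0.22 and 0.12 in edgeR). The 9 markers of oligodendrocytes and Schwann cells, the latter known to depend on ERBB3, summed to 78.3 to 114 CPM after nicotine and 85.3 to 155 CPM in controls, with control replicate 2 highest, which was not a high library for Erbb3. Among these markers Mag and Mog were too low to be tested, and Sox10 was at 0.611 to 1.14 CPM after nicotine and 0.258 to 0.586 CPM in controls. Control replicate 3, highest for Nrg3 and Hbegf, was also highest for the melanotroph factor Pax7, at 93.6 CPM where the remaining 5 had 12.5 to 47.9 CPM. It was highest as well for the sum of the 5 melanotroph markers, at 72354 CPM where they had 20691 to 46685 CPM, but 71827 CPM of that sum was Pomc, which corticotrophs also express. Control replicate 3 was highest too for the sum of the blood and immune markers, at 336 CPM. The 10 folliculostellate and stem cell markers summed to 531 to 732 CPM after nicotine and 552 to 604 CPM in controls. These relations between libraries were not tested.

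**Figure D4:**
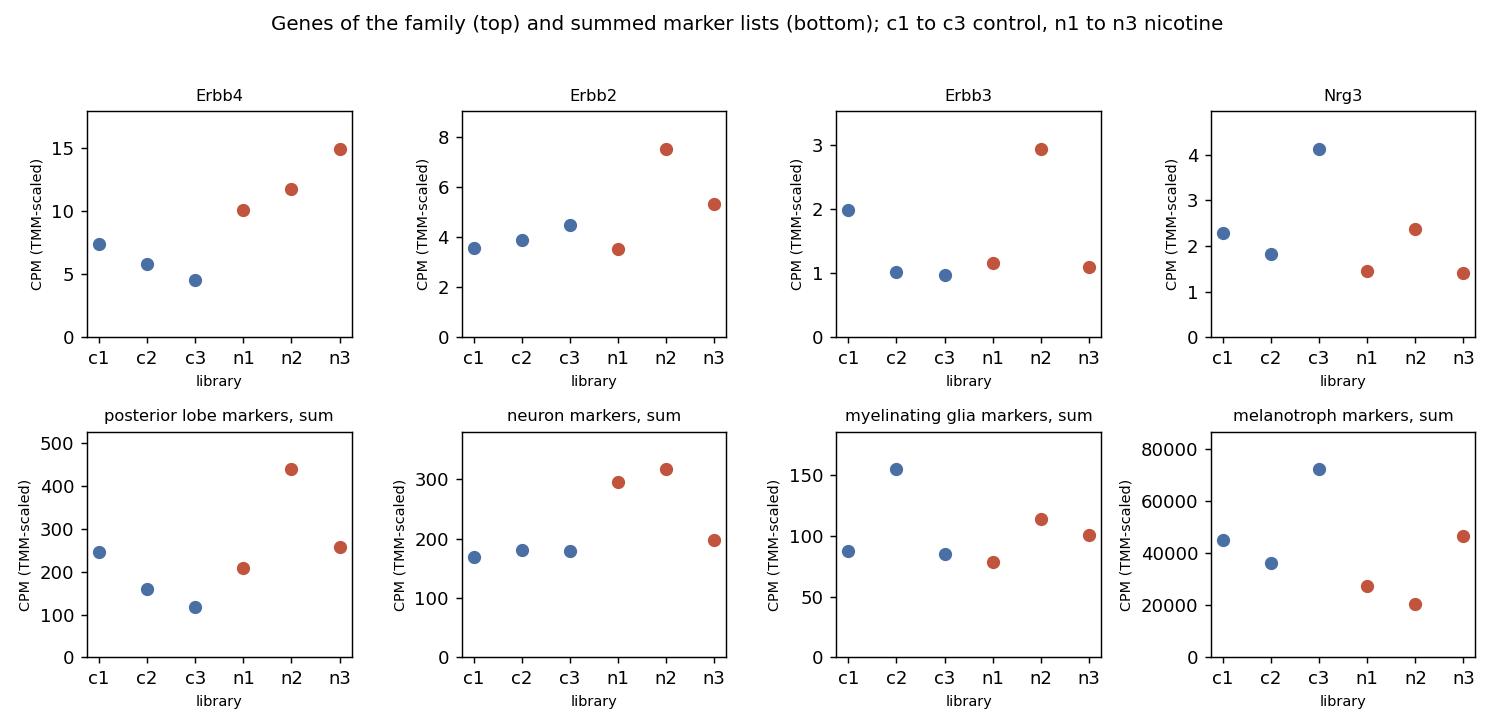
Levels of Erbb4, Erbb2, Erbb3 and Nrg3 (top) and summed levels of 4 marker lists (bottom) in each library (x axis, c1 to c3 control in blue and n1 to n3 nicotine in red), in CPM after TMM scaling (y axis from 0). Erbb4 and the sum of the neuron markers separate the groups, while 1 of the 8 neuron markers tested, Tubb3, does so singly. The sums of the posterior lobe markers overlap, with control replicate 1 at 247 CPM above nicotine replicate 1 at 209 CPM. Control replicate 3 is highest for Nrg3 and the melanotroph markers, whose sum is nearly all Pomc.

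The genes whose levels followed those of Erbb4 most closely over the 6 libraries were Zfp385b, Igfbp4, Slc6a11, Kif5a and Jhy. Likeness was the root mean square difference of log2 CPM after subtracting the mean of each gene, which was 0.07 for Zfp385b and 0.14 for Jhy. Igfbp4, which encodes a binding protein of insulin-like growth factors, was at 67.2, 81.8 and 94.8 CPM after nicotine and at 53.0, 36.8 and 26.7 CPM in controls. Slc6a11 encodes a GABA transporter and Kif5a a kinesin of neurons, and they stood at means of 0.977 and 2.14 CPM over all libraries. Since all 5 genes were picked for following Erbb4, their own difference between groups follows from the choice. Of the family, Egfr was nearest to Erbb4, at 0.49 and rank 1472 of 17291 genes, and Nrg3 was farthest, at 1.02 and rank 16310.

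Some genes of the family overlap others in the annotation. In build GRCr8 4 annotated loci lie within or across the span of Erbb4, 2 of which are in the count tables, and Nrg2 overlaps Psd2 and Nrg4 overlaps Fbxo22. The library kit keeps strand, but the strand setting of the counting is not given in the sources used here, so reads from such neighbours cannot be told apart with certainty.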

How the data were processed

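Pituitary RNA of 3 nicotine and 3 control rats was sequenced with 1 library per rat. Per the study's methods and the submitters' processing notes, the authors mapped paired-end stranded reads to rn7 with HISAT2 2.1.0 and deposited the counts per gene symbol from FeatureCounts, with the UCSC ncbiRefSeq annotation and without normalization. Strand setting, multi-mapping reads and counting of pairs are not given in the sources used here.

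Groups were read from the sample titles. Calculations used R 4.3.3, edgeR 4.0.16 and DESeq2 1.42.0. Of 24546 symbols with a count, filterByExpr kept 17292. Libraries were scaled by TMM, and groups were compared by the edgeR quasi-likelihood method with no covariate, with Benjamini-Hochberg adjustment over all genes tested. The procedure was tested on simulated counts. An exact permutation test of 3 libraries against 3 cannot give a p under 0.1 and was not used.

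The members and lists were chosen with earlier results of these data known. Named genes are the 10 members, the 2 most abundant of each pathway list, up to 3 per list with the largest log2 fold change at an unadjusted p under 0.05, and the 5 genes closest to Erbb4. Other names, among them Areg, Psd2, Fbxo22 and the markers named singly, were chosen after their values were seen. Same-numbered libraries are not described as pairs and were not treated as such. Their deviations from the group means correlated at 0.026, -0.198 and -0.078, which cannot exclude a shared litter or batch. Alternatives are given with the closing observations, and the values of marker lists and of genes outside the family without 1 library were added after seeing the data. Counting intervals cover counting error only.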

Additional observations from a re-analysis of the deposited data

How the results depend on the processing

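With 1 library left out at a time, 0 of the 10 genes were called in edgeR, and 0 to 9 of all genes, namely 9, 4 and 1 when nicotine replicate 3, control replicate 2 and nicotine replicate 2 were dropped. Over all genes DESeq2 called 61, library totals alone 1, no filter 2 and the replicate block 2, while RLE scaling, at least 10 counts in every library, thinning to the smallest library and leaving out genes over 1% of the counts called 0. With the replicate number as a block 0 of the 10 genes and 0 pathway genes were called, and the number is not described as pairing the samples. DESeq2 called 1 of the 10 genes, Erbb4, and DESeq2 without 1 library at a time, chosen after seeing the data, called 0 to 1 of the 10 and, of all genes, 89, 120 and 188 with nicotine replicates 1, 2 and 3 left out and 88, 57 and 42 with control replicates 1, 2 and 3 left out. Erbb4 lost its call there when nicotine replicate 3 or control replicates 2 or 3 were dropped. No pathway gene was called under these alternatives in edgeR or DESeq2. 

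The log2 fold change of Erbb4 lay between 0.90 and 1.24 over all edgeR alternatives, and Egfr, Erbb2, Nrg1 and Nrg3 also kept their sign in edgeR and DESeq2. With 1 library left out, the range was -0.18 to 0.83 for Erbb3, -0.11 to 0.44 for Nrg2, -0.33 to 0.26 for Nrg4, -0.86 to 0.0493 for Btc and -0.37 to 0.19 for Hbegf. The sign turned without nicotine replicate 2 for Erbb3 (-0.18, and -0.22 in DESeq2) and Nrg4 (0.14, and 0.19 in DESeq2), without control replicate 2 for Nrg2 (-0.11, and -0.0925 in DESeq2) and Nrg4 (0.26, and 0.29 in DESeq2), without nicotine replicate 1 for Btc (0.0493), and without control replicate 3 for Hbegf (0.19, and 0.20 in DESeq2). Btc had no value with at least 10 counts in every library. Why the sign turned was not tested. Of the ligands, Btc, Areg, Ereg and Epgn have the fewest counts. Of the marker lists, edgeR called 1 neuron and 1 immune marker without nicotine replicate 3 and 2 immune markers without control replicate 2, and otherwise 0.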
